A study of Mus musculus with 29 samples.

Results

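The genes described here encode 9 proteins of the postsynaptic side of the synapse. They are 2 membrane-associated guanylate kinases, Dlg2 and Dlg4, the 3 Shank genes, Homer1, and the 3 neuroligin genes Nlgn1, Nlgn2 and Nlgn3. The members were taken as a list of symbols, chosen with earlier results of these data known, and all 9 were matched to 1 Ensembl identifier each among the 48709 identifiers of the count tables. All 9 passed the filter on low counts in both experiments in which they were tested.

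The postsynaptic density is a protein layer under the membrane of excitatory synapses on dendritic spines. PSD-95 (encoded by Dlg4) and PSD-93 (Dlg2) hold glutamate receptors and adhesion proteins in place, the Shank proteins form the layer beneath them, and Homer1 links the Shank proteins to metabotropic glutamate receptors. Neuroligins are adhesion proteins of the postsynaptic membrane that bind presynaptic neurexins. Nlgn1 is known for excitatory synapses, Nlgn2 for inhibitory synapses, and Nlgn3 for both.

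RNA was sequenced in the prefrontal cortex (PFC) of C57BL/6J mice aged 3 months, in primary microglia of CD1 mice, and in co-cultures of CD1 cortical neurons with CD1 microglia. Of the 6 PFC libraries, 3 followed an injection of anti-miR-99b into the PFC and 3 an injection of sc-control, and tissue of a single side was collected 5 days later. The inhibitor of miR-99b-5p, called anti-miR-99b, was an oligonucleotide of locked nucleic acids, sc-control was its scrambled counterpart, and lipid nanoparticles carried both into the tissue. In the co-cultures, neurons were taken at embryonic day 17.5 and microglia from pups at postnatal day 1, and the oligonucleotide was given to the microglia alone, 48 h before they joined the neurons for another 48 h. There were 7 co-cultures with anti-miR-99b and 8 with sc-control. Primary microglia, taken at the same age and treated for 2 days, gave 4 libraries per treatment. The comparisons ask whether inhibition of miR-99b-5p in the tissue, or in microglia alone, goes along with another level of the mRNAs of the postsynaptic scaffold.

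Reads counted on genes ranged from 24482309 to 36475236 in the PFC libraries, from 23269839 to 37901110 in the co-cultures and from 21324156 to 35013400 in the microglia. The PFC libraries were made from individual mice, per the study. For the cultures the labels do not name separate preparations, so p-values of the co-cultures measure the spread between these libraries, which may be technical. Levels are given as CPM, the read count scaled to a common library size with TMM factors. All 10 neuron markers and all 10 microglia markers searched were detected in the PFC and in the co-cultures, with Tmem119 at only 0.456 CPM in the co-cultures. In primary microglia the microglia markers summed to 12066 CPM or more and the neuron markers to 145 CPM or less. The summed level of the microglia markers in the co-cultures was 161 to 187 CPM with anti-miR-99b and 131 to 166 CPM with sc-control. Of the 10, 5 were called higher (Cx3cr1, Csf1r, C1qa, C1qb and C1qc). Estimates there were above 0 for 9 of 10 and below 0 for Itgam (log2 fold change -0.24, not called). The neuron markers summed to 8176 to 8331 CPM and to 8073 to 8390 CPM in the same groups, and 0 of 10 passed the threshold. In the PFC, the summed microglia markers reached 687 to 748 CPM after anti-miR-99b against 522 to 703 CPM, and the neuron markers 9346 to 9524 CPM against 9521 to 10163 CPM, with 0 of 10 called in either list. Estimates in the PFC were above 0 for 9 of 10 microglia markers and below 0 for 9 of 10 neuron markers. Of the microglia markers 5 had an unadjusted p under 0.05 by edgeR there, and of the neuron markers 0. Of 17364 genes tested in the PFC, 15 were called higher and 0 lower. Of the astrocyte, oligodendrocyte and endothelial markers 0 were called in either experiment. In the co-cultures 9 of 10 astrocyte and 5 of 8 endothelial markers passed the filter and were tested. The part of these differences in the values of the scaffold genes was not tested, and in such bulk samples fewer cells of a type and less RNA per cell cannot be told apart.

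The inhibited microRNA is shown first because its seed (bases 2 to 8, in capitals) sets which mRNAs it can pair with. The mature sequence is taken from RefSeq (GRCm38.p6, chr17:17830194-17830215, plus strand).

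mmu-miR-99b-5p: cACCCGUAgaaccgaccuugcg

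The DNA letters that pair with all 7 seed bases are TACGGGT, and those that pair with bases 2 to 7 are ACGGGT. On the sense strand of annotated 3' UTRs (GENCODE M21, GRCm38), the match to all 7 bases was found in 250 of 21022 protein-coding genes (1.19%) and in 0 of the 9 scaffold and neuroligin genes. The shorter match, which every longer match contains, occurred in 1228 genes (5.84%) and in 2 of the 9, Homer1 and Shank3. These matches lie at chr13:93402779-93402784 in Homer1 and at chr15:89559013-89559018 in Shank3, both on the plus strand. The only match to all 7 bases in the 9 genes' coding transcripts was in Nlgn2, upstream of its 3' UTR, in the coding part or the 5' UTR (chr11:69827120-69827126, minus strand). The matches are printed with their flanks to show what surrounds the letters in capitals.

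Homer1, 3' UTR: ctcactatcaACGGGTgtctggagtt

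Shank3, 3' UTR: gctcagggggACGGGTggcaggcatt

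Nlgn2, coding part or 5' UTR: ggacaacttgTACGGGTacccagaagg

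A match is a description of letters and says nothing about pairing in these cells. The log2 fold changes of the genes that hold them are given with the other members below.

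The levels of the 9 genes differed widely between genes and systems when they were divided by exonic length. In the sc-control PFC, Dlg4 was the highest at 68.8 ± 5.24 CPM per kb (SD, n = 3), followed by Nlgn2 at 58.7 ± 2.35 and Shank1 at 54.5 ± 1.01. Dlg2, Shank3, Shank2 and Homer1 lay between 22.4 and 26.2 CPM per kb, where Dlg2 overlapped Shank3 and Shank2 overlapped Homer1. Nlgn3 (5.30 ± 0.223) and Nlgn1 (4.74 ± 0.228) were the lowest. All other neighbours in this order had ranges that did not overlap.

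In the sc-control co-cultures Nlgn2, the neuroligin of inhibitory synapses, stood first at 61.3 ± 1.98 CPM per kb (SD, n = 8). Dlg4 followed at 37.6 ± 0.914, Dlg2 at 31.6 ± 1.17, Shank1 at 27.9 ± 1.53, Shank2 at 20.98 ± 0.690 and Shank3 at 17.3 ± 0.480. Homer1 (8.70 ± 0.479), Nlgn3 (8.66 ± 0.351) and Nlgn1 (7.87 ± 0.385) closed the order. Among these 3, Homer1 overlapped Nlgn3 and Nlgn3 overlapped Nlgn1, while Shank3 lay above Homer1 without overlap. The experiments were scaled apart and differ in age, strain and cell makeup, so the ratios between them are given without a test. Homer1 was 2.57 times, Shank1 1.95 times and Dlg4 1.83 times as high in the PFC as in the co-cultures, whereas Nlgn1 and Nlgn3 were 1.66 and 1.63 times as high in the co-cultures.

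Primary microglia held little RNA of most of these genes. Dlg2 reached 0.0391 ± 0.0130 CPM per kb (SD, n = 4), which is 0.124% of its level in the co-cultures, and rested on 13 to 22 counts per sc-control library. Shank1 stood at 0.639%, Shank2 at 1.28% and Shank3 at 1.44% of the level in the co-cultures. Homer1 (26.7%), Nlgn2 (9.81%), Dlg4 (7.69%) and Nlgn1 (5.62%) had higher shares. Between the treatments, the values of 3 of the 9 genes did not overlap in microglia, as against 3.44% of the 14953 genes past the filter, and no test was run. Homer1 lay at 25.3 to 26.5 CPM with anti-miR-99b and at 26.7 to 28.5 CPM with sc-control, Nlgn1 at 4.26 to 5.08 CPM and 5.59 to 6.70 CPM, and Shank2 at 2.08 to 2.75 CPM and 2.76 to 3.05 CPM. All 3 were lower with anti-miR-99b, and Shank2 rested on 62 to 96 counts per library. Mean levels were also lower for 8 of 10 neuron, 8 of 10 astrocyte and 8 of 10 oligodendrocyte markers, and higher for 2 of each. All 10 microglia markers had higher means. The astrocyte markers summed to 286 to 329 CPM with anti-miR-99b and 301 to 336 CPM with sc-control. The part of other cells in the lower values of the 3 genes was not tested. The other 6 genes overlapped, among them Dlg4 at 38.8 to 40.7 CPM and 36.4 to 40.3 CPM.

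**Figure D1:**
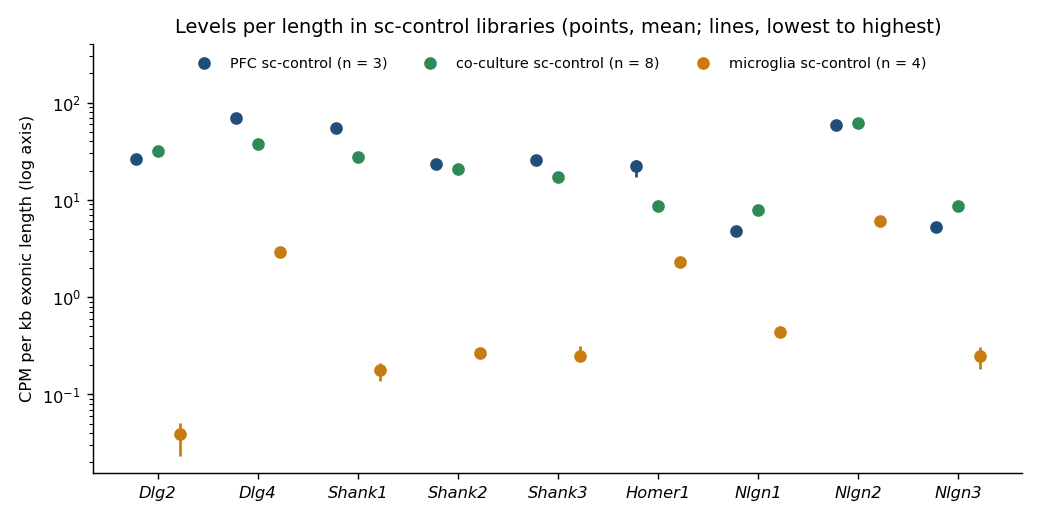
Mean CPM per kb of exonic length (points, log axis) with the lowest and highest library (lines) in sc-control libraries of the PFC (n = 3), the co-cultures (n = 8) and primary microglia (n = 4). All 9 genes were lowest in microglia, with Dlg2 at 0.0391 and Nlgn2 at 6.01 CPM per kb, and Homer1 was 2.57 times as high in the PFC as in the co-cultures.

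The length of the gene matters for such a ranking. With the longest annotated transcript as the length, Dlg4 rose to 144 CPM per kb and Homer1 to 46.9 CPM per kb in the sc-control PFC, and Homer1 moved from place 7 to place 5. In the co-cultures the first place passed from Nlgn2 to Dlg4 (78.9 CPM per kb) and Dlg2 (65.9) moved ahead of Nlgn2 (63.7). Of the 27 levels, 23 moved by more than their SD. Dlg4, Dlg2 and Homer1 have exon unions of 13251, 16280 and 11976 bp but longest transcripts of 6326, 7813 and 5713 bp, with 22, 17 and 12 annotated transcripts.

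In the PFC, none of the 9 genes passed the threshold of an adjusted p under 0.1 and a log2 fold change beyond 0.2. Of 17364 genes tested with edgeR's quasi-likelihood test, 0.0864% were called higher and 0% lower. The log2 fold changes of 4 members were above 0 and those of 5 were below 0, with a median of -0.019 against 0.0025 for all genes tested; with upper-quartile scaling Shank2 moved above 0 (0.020). This split was not stable, since 8 were below 0 and 1 above when the first anti-miR-99b library was left out, and likewise when the trend over GC content was removed. Adjusted p-values ran from 0.66 to 0.957 and 0 of 9 had an unadjusted p under 0.05. The values of the 2 groups overlapped for all 9, while 13.3% of all genes tested had groups that did not overlap.

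Of the 2 guanylate kinases, Dlg4 (ENSMUSG00000020886, chr11:70016942-70047522, plus strand) measured 1040, 937 and 865 CPM in the anti-miR-99b libraries and 960, 944 and 833 CPM in the sc-control libraries. The first anti-miR-99b library was above all sc-control libraries and the third was above the lowest of them. This gave a log2 fold change of 0.054 (SE 0.089, adjusted p = 0.887 by edgeR). Dlg2 (ENSMUSG00000052572, chr7:90476672-92449247, plus strand) measured 371, 387 and 439 CPM against 431, 423 and 428 CPM. Here 2 anti-miR-99b libraries lay below and 1 above all sc-control libraries, whose own spread was narrow (SD 4.11 CPM). Its log2 fold change was -0.098 (SE 0.076, adjusted p = 0.74), and leaving out 1 anti-miR-99b library moved it to -0.045 (replicate 1) or -0.17 (replicate 3).

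Shank1 (ENSMUSG00000038738, chr7:44310253-44360572, plus strand), a scaffold of mature spines, had the highest log2 fold change of the 9 in the PFC. It measured 725, 582 and 613 CPM after anti-miR-99b and 582, 576 and 562 CPM after sc-control. All 3 anti-miR-99b libraries were above the median of the sc-control, and the first stood well apart from the other 2. Its log2 fold change was 0.16 (SE 0.087, 95% interval -0.033 to 0.35), with an adjusted p of 0.671 by edgeR and an exact permutation p of 0.2, where 3 against 3 cannot go below 0.1. Without anti-miR-99b replicate 1, the log2 fold change of Shank1 was 0.065. Shank2 (ENSMUSG00000037541, chr7:144001928-144424494, plus strand) ranged from 230 to 265 CPM against 240 to 257 CPM, and its log2 fold change was -0.019 (SE 0.073). Shank3 (ENSMUSG00000022623, chr15:89499623-89560261, plus strand) ranged from 221 to 273 CPM against 223 to 250 CPM. Its log2 fold change was 0.056 (SE 0.087). For both, the anti-miR-99b libraries reached above and below the sc-control range.

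Homer1 (ENSMUSG00000007617, chr13:93299635-93405129, plus strand) had the lowest log2 fold change of the 9 in the PFC and by far the widest spread. A short form of Homer1 is known as an activity-induced transcript, and counts per gene do not tell the forms apart. It measured 176, 227 and 249 CPM after anti-miR-99b and 309, 206 and 288 CPM after sc-control. All 3 anti-miR-99b libraries were below the sc-control median, but the sc-control library with 206 CPM lay below 2 of them. The estimate was -0.30 on the log2 scale (SE 0.16, 95% interval -0.65 to 0.048), with an adjusted p of 0.66 by edgeR and an exact permutation p of 0.3. It was -0.17 without anti-miR-99b replicate 1, -0.19 without sc-control replicate 2 and -0.46 without sc-control replicate 3. With no filter on low counts Homer1 was called lower (log2 fold change -0.32, adjusted p = 0.054 by edgeR). In that setting 297 genes were called higher and 115 lower of 31281 tested, against 15 and 0 of 17364 in the main fit.

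Among the neuroligins, Nlgn1 (ENSMUSG00000063887, chr3:25426215-26332460, minus strand) measured 51.6, 52.6 and 65.4 CPM after anti-miR-99b and 60.1, 65.4 and 65.4 CPM after sc-control. The first and second of the anti-miR-99b libraries lay below all sc-control libraries and the third at their upper end. The log2 fold change was -0.17 (SE 0.096, adjusted p = 0.675 by edgeR), and -0.10 without anti-miR-99b replicate 1 or -0.29 without replicate 3. Nlgn3 (ENSMUSG00000031302, chrX:101299168-101325963, plus strand) ranged from 39.3 to 49.6 CPM against 47.1 to 51.3 CPM, with a log2 fold change of -0.12 (SE 0.091). That of Nlgn3 was -0.027 without anti-miR-99b replicate 1 and -0.19 without replicate 2. Nlgn2 (ENSMUSG00000051790, chr11:69823122-69837784, minus strand) ranged from 321 to 392.1 CPM against 325 to 352 CPM, with a log2 fold change of 0.058 (SE 0.082). Nlgn1 and Nlgn3 thus had estimates below 0 and Nlgn2 above 0, each with a 95% interval that included 0, and Nlgn2 was below 0 once the trend over GC content was removed (-0.045).

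Some of these loci share exons with other annotated genes. The library kit does not mark the strand and the counting rule for shared bases is not given in the sources used here. Nlgn3 shares 3823 exonic bp with Gm21986 on the same strand, Nlgn1 shares 1229 bp with the antisense gene A830092H15Rik, Shank1 shares 339 bp with 1700008O03Rik, and Shank3 shares 271 bp with Gm15609. Counts of these 4 genes are uncertain to that extent, and those of Dlg2 by the 150 bp it shares with Gm45131 and the 75 bp with Gm45159.

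**Figure D2:**
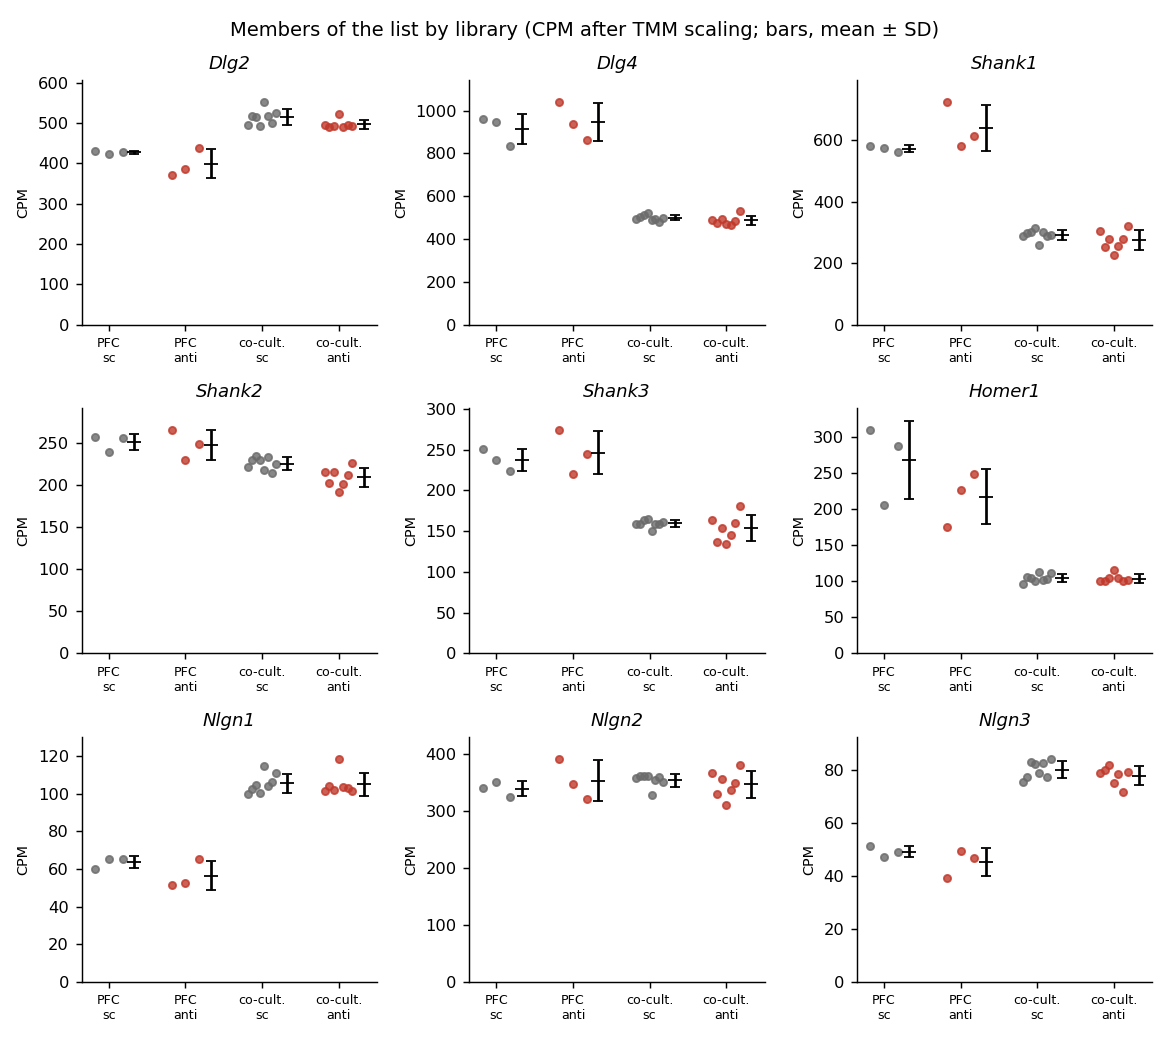
CPM of each gene in each library (points) of the PFC and the co-cultures, with sc-control in grey and anti-miR-99b in red, and the mean ± SD of the group (black bars). Axes start at 0. Groups overlapped for all 9 genes in both experiments; Shank2 in the co-cultures had 7 of 7 anti-miR-99b libraries below the sc-control median.

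In the co-cultures, all 9 genes had a log2 fold change below 0 after the microglia had received anti-miR-99b, also with RLE or upper-quartile scaling. Of all genes tested, 7842 of 16193 were below 0. The count of members was not stable, since 7 were below 0 without sc-control replicate 6 or 12 and under the replicate block. With the trend over exonic length or genomic span removed, 6 were below 0. None of the 9 passed the threshold of an adjusted p under 0.05 and a log2 fold change beyond 0.1. Of 16193 genes tested, 0.556% were called lower and 0.846% higher. The log2 fold changes ran from -0.11 (Shank2) to -0.0072 (Homer1), with a median of -0.039 against 0.0025 for all genes. Shank2 and Dlg2 had an unadjusted p under 0.05 (2 of 9), as did 2139 of all genes tested. Groups overlapped for all 9 members, and did not for 0.58% of all genes.

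Shank2, whose product joins the layer beneath PSD-95, came closest to the threshold. Its level was 192 CPM at the lowest, 212 at the median and 226 at the highest in the anti-miR-99b co-cultures, and 214, 228 and 235 CPM in the sc-control co-cultures. All 7 anti-miR-99b libraries were below the sc-control median and 4 of them were below the lowest sc-control library, whereas 4 of 8 sc-control libraries were above every anti-miR-99b library. Its log2 fold change was -0.11 (SE 0.029, 95% interval -0.17 to -0.048), a difference of -7.29%, with an adjusted p of 0.0619 by edgeR. The exact two-sided permutation test over the libraries gave p = 0.00513 before any adjustment. DESeq2 gave an adjusted p of 0.028 for Shank2, and its adjusted p over all 29 alternatives ran from 0.00078 to 0.968.

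Shank1 and Shank3 were lower on average and much more variable. Shank1 had a lowest, median and highest level of 227, 279 and 322 CPM with anti-miR-99b against 260, 296 and 314 CPM. The anti-miR-99b libraries reached both below and above the sc-control range, and 5 of 7 lay under its median. On the log2 scale the difference was -0.095 (SE 0.052, adjusted p = 0.459 by edgeR). Shank3 measured 134, 154 and 180 CPM against 150, 159 and 164 CPM, and its log2 fold change was -0.054 (SE 0.044, adjusted p = 0.66). Without anti-miR-99b replicate 7, the estimates were -0.052 for Shank1 and -0.024 for Shank3. Shank3 was at -0.029 without replicate 3 and at -0.096 without replicate 12. The coefficient of variation of Shank3 was 10.5% in the anti-miR-99b libraries and 2.77% in the sc-control libraries, and that of Shank1 was 11.8% and 5.48%.

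Dlg2 measured 489, 494 and 523 CPM (lowest, median, highest) with anti-miR-99b and 493, 516 and 552 CPM with sc-control. Apart from 1 anti-miR-99b library, all lay below the sc-control median. The difference was -0.050 on the log2 scale (SE 0.023, adjusted p = 0.352 by edgeR). Dlg4 measured 467, 485 and 532 CPM against 482, 497 and 520 CPM, and 6 of 7 anti-miR-99b libraries were below the sc-control median while the seventh was above all sc-control libraries. Its log2 fold change was -0.035 (SE 0.025). Homer1 measured 99.8, 101.2 and 116 CPM against 95.5, 104 and 113 CPM, with a log2 fold change of -0.0072 (SE 0.035, 95% interval -0.080 to 0.065).

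The estimates of the neuroligins lay between -0.039 and -0.0084, and their 95% intervals included 0. Nlgn1 measured 102, 103 and 119 CPM against 100.0, 105 and 115 CPM and had a log2 fold change of -0.0084 (SE 0.034). Nlgn2 measured 310, 350 and 382 CPM against 328, 359 and 363 CPM, and its log2 fold change was -0.028 (SE 0.033). Nlgn3 measured 71.8, 79.0 and 81.9 CPM against 75.5, 80.7 and 84.3 CPM, with a log2 fold change of -0.039 (SE 0.030). Leaving out 1 library moved Nlgn2 to -0.0011, -0.016 or -0.051 (anti-miR-99b replicate 7, 3 or 12) or -0.043 (sc-control replicate 6), and Nlgn3 to -0.021 (anti-miR-99b replicate 11). The groups overlapped for each of these genes. For Nlgn2 the sc-control range lay inside the anti-miR-99b range, and for Nlgn3 4 of 8 sc-control libraries were above every anti-miR-99b library.

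Sequencing lane, which the library names give, was split over both groups. Within the 4 lanes, Shank2 was lower with anti-miR-99b in 4 of 4, by -0.28 to -0.045 on the log2 CPM scale, and Shank1 was lower in 4 of 4, by -0.42 to -0.029. Shank3, Dlg2, Dlg4 and Homer1 were lower in 3 lanes, and Nlgn1, Nlgn2 and Nlgn3 in 2. Lanes held between 1 and 3 libraries of each group, and in the lane with the largest differences for both Shank1 and Shank2 each group had 1 library. In the PFC, Homer1 was lower in both lanes (-0.34 and -0.21) and Shank1 higher in both (0.13 and 0.17).

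**Figure D3:**
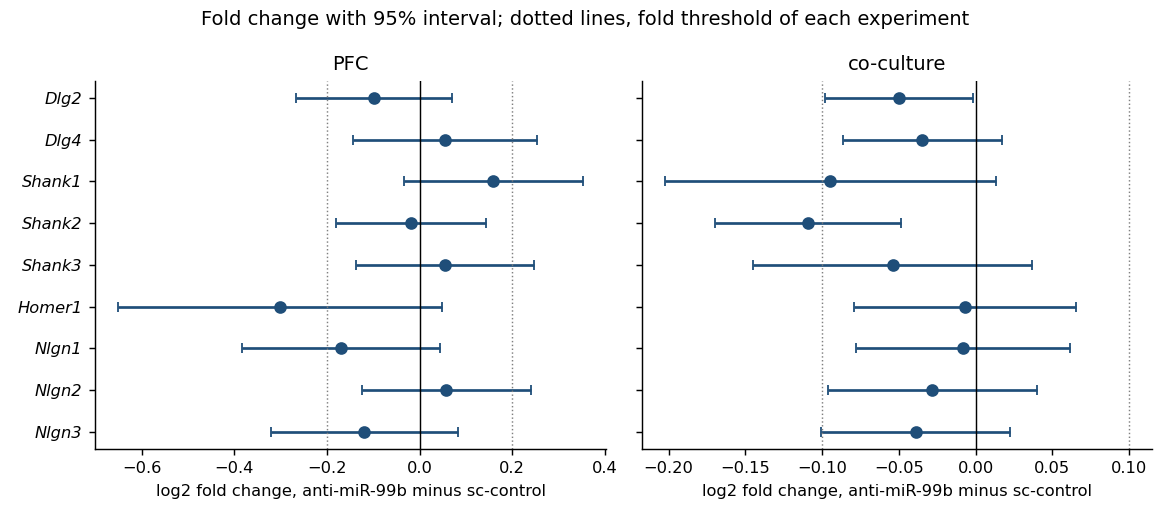
Log2 fold change (anti-miR-99b minus sc-control) of the 9 genes with its 95% interval (bars) in the PFC and the co-cultures, with the fold threshold of each experiment as dotted lines. The axes have different ranges. All PFC intervals include 0, and in the co-cultures those of Shank2 (-0.17 to -0.048) and Dlg2 (-0.098 to -0.0020) do not.

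The 9 genes are long, and long transcripts as a class were lower after anti-miR-99b. Exonic lengths ran from 5.79 kb (Nlgn2) to 16.3 kb (Dlg2), at percentiles 68.1 to 98.1 of the genes tested in the co-cultures, whose median was 4.23 kb. Across all genes, the median log2 fold change in the co-cultures went from 0.040 in the decile with the shortest exons to -0.040 in that with the longest. In the PFC it went from 0.047 to -0.036. Spearman's rho between fold change and exonic length was -0.276 in the co-cultures and -0.149 in the PFC, across genes, which are not independent replicates.

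At the exonic length of each member, the trend of all genes in the co-cultures lay at -0.048 for Dlg2, -0.039 for Nlgn1, -0.038 for Dlg4 and -0.033 for Homer1. The log2 fold change of Dlg2 (-0.050) and of Dlg4 (-0.035) was within 0.0034 of that trend. Homer1 and Nlgn1 were 0.026 and 0.030 above it, while Shank2 was -0.082, Shank1 -0.068, Shank3 -0.035, Nlgn2 -0.030 and Nlgn3 -0.020 from it. With the exonic trend removed from each library, 6 of 9 members rather than 9 had a log2 fold change below 0, their median was -0.019, and Shank2 measured -0.081 (SE 0.032, adjusted p = 0.352 by edgeR). In the PFC the trend at the members' lengths lay between -0.034 and 0.010, beside estimates of 0.16 for Shank1 and -0.30 for Homer1.

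The genomic span sets the genes apart in another way. Dlg2 covers 1973 kb, Nlgn1 906 kb and Shank2 423 kb, at percentile 98.1 or higher of the co-culture genes, whereas Nlgn2 covers 14.7 kb and Nlgn3 26.8 kb. With the trend over span removed, Shank2 measured -0.076 from the trend of the co-culture fold changes, Shank1 -0.093, and Dlg2 0.0034. Removing either length trend thus brought Dlg2 to within 0.01 of 0 in the co-cultures and left the estimates of Shank1 and Shank2 below 0.

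**Figure D4:**
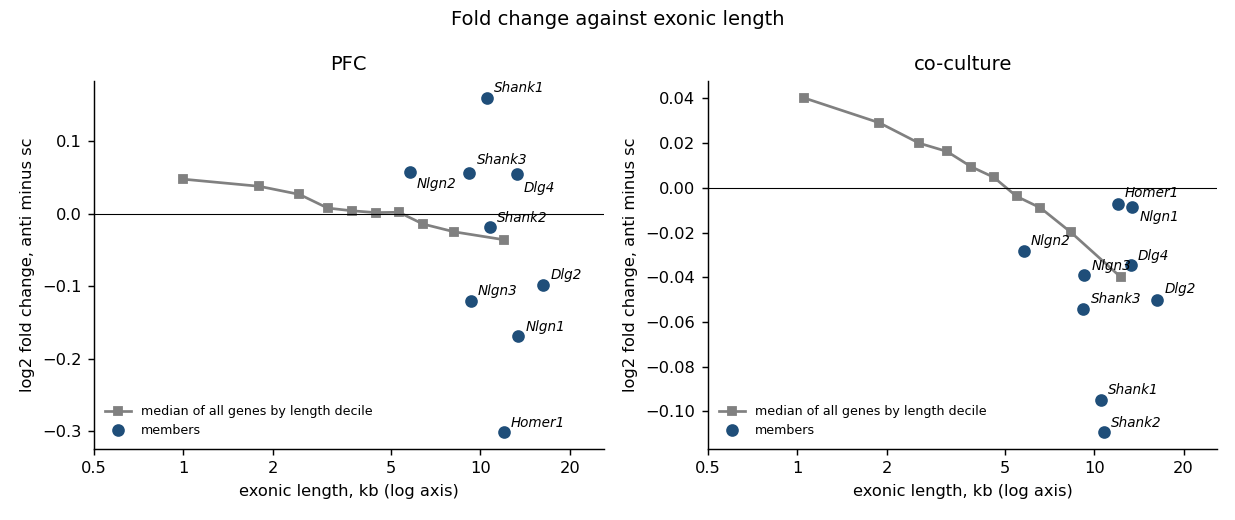
Log2 fold change (anti-miR-99b minus sc-control) against exonic length (log axis) in the PFC and the co-cultures, with the median of all genes in each decile of length (grey squares) and the 9 members (blue points). In the co-cultures the grey line falls from 0.040 to -0.040, Dlg2 and Dlg4 lie within 0.0034 of a smooth trend, and Shank1 and Shank2 lie the farthest below it. The vertical axes differ.

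Over the 15 co-culture libraries, with group means removed, the 9 genes did not vary as 1 block. Of 36 pairs, 19 had a positive Pearson r and 17 a negative one. Shank1, Shank2, Shank3, Dlg4 and Nlgn2 varied together, with r from 0.753 to 0.966 (Shank1 with Nlgn2). Dlg2, Homer1 and Nlgn1 formed a second set, with r from 0.857 to 0.925. Pairs across the 2 sets were all negative, down to -0.789 for Nlgn1 with Nlgn2, and Nlgn3 had r between -0.0895 and 0.406 with the other 8. These are descriptions over libraries that share a scaling.

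The same 2 sets differ in base composition. The GC content of the coding transcripts (median per gene) was 63.7% in Shank1, 62.3% in Shank3, 60.7% in Nlgn2, 56.1% in Dlg4 and 55.2% in Shank2. It was 44.3% in Dlg2, 43.5% in Homer1 and 41.1% in Nlgn1, with Nlgn3 between at 49.3%, and the median of all genes tested was 50.5%. Libraries differed in how counts ran with GC content. The slope over all genes, in log2 per 10 points of GC, ran from -0.129 to 0.105 in the anti-miR-99b co-cultures and from -0.0907 to 0.0531 in the sc-control co-cultures, with medians of 0.0153 and 0.0104. Anti-miR-99b library 7 and sc-control library 6 had the lowest slopes of their groups, and were the libraries in which Shank1 was lowest (227 and 260 CPM) and Nlgn1 highest (119 and 115 CPM).

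With a smooth trend over GC content removed from each library, 35 of the 36 pairs had a positive r, from -0.0681 to 0.823. The spread within groups (SD of log2 CPM) fell from 0.131 to 0.0569 for Shank1, from 0.106 to 0.0491 for Shank3, from 0.0762 to 0.0224 for Nlgn2 and from 0.0739 to 0.0393 for Nlgn1. It did not fall for Nlgn3, at 0.0611 before and 0.0645 after. In this fit, chosen after the data were seen, 2 members were called lower in the co-cultures, Shank2 (log2 fold change -0.12, SE 0.022, adjusted p = 0.00102 by edgeR) and Shank1 (-0.10, SE 0.023, adjusted p = 0.00713), and 9 of 9 estimates remained below 0. In the same fit the call over all genes also widened, to 252 higher and 278 lower against 137 and 90. With GC content and exonic length removed together, 0 members were called, and Shank2 measured -0.076 (SE 0.019, adjusted p = 0.0313), which is under the fold threshold.

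In the PFC the estimates ran with GC content. Shank1, Nlgn2, Shank3 and Dlg4, whose estimates were above 0, are the 4 members with the highest GC content, and across all genes Spearman's rho between fold change and GC content was 0.352, against -0.0284 in the co-cultures. The first anti-miR-99b library of the PFC had a slope of 0.186 per 10 points of GC, the highest of the 6, and held the highest Shank1, Shank3, Dlg4 and Nlgn2 of all PFC libraries. With the GC trend removed, Dlg4 (-0.032), Shank3 (-0.046) and Nlgn2 (-0.045) had estimates below 0, Shank1 was at 0.053 and Homer1 at -0.26, and 0 members were called. The source of these slopes was not tested.

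**Figure D5:**
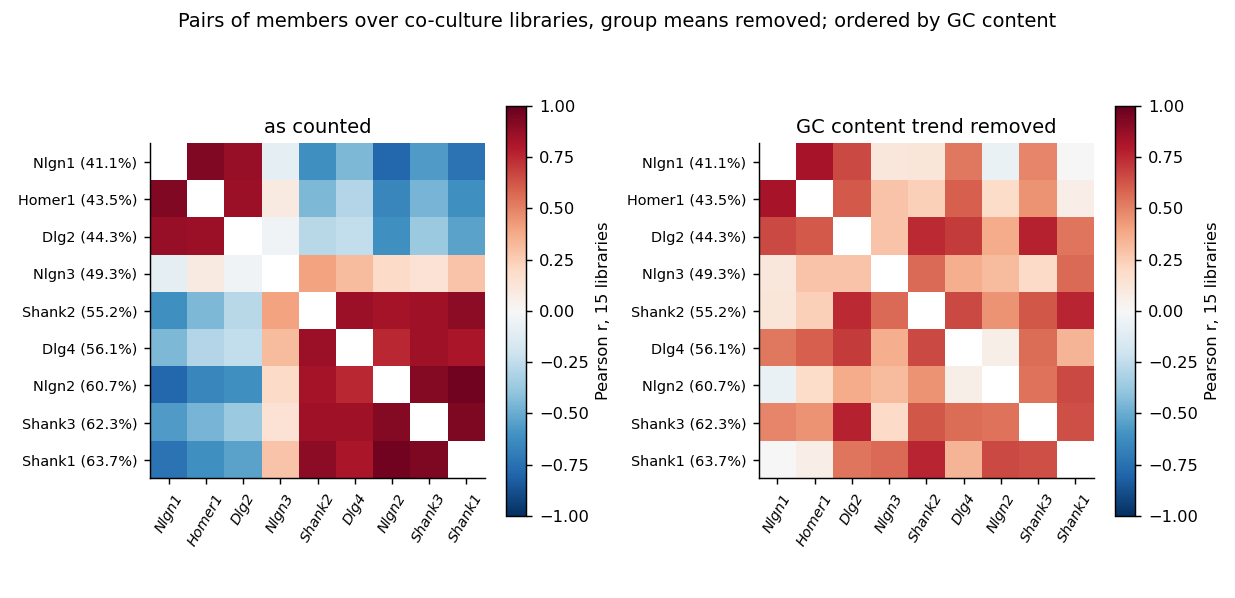
Pearson r of each pair of the 9 genes over 15 co-culture libraries, with group means removed, as counted (left) and after a trend over GC content was removed from each library (right), ordered by GC content (given beside each name). On the left the values split into 2 positive sets with negative values between them, down to -0.789; on the right 35 of 36 pairs are positive.

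Whether the 2 systems responded differently was tested in 1 fit over 21 libraries. The difference in log2 fold change (co-culture minus PFC) passed the threshold of an adjusted p under 0.05 for 0 of 9 members, and for 0.448% of 18321 genes tested. The lowest adjusted p-values were those of Homer1 (difference 0.31, SE 0.13, adjusted p = 0.23), Shank1 (-0.24, SE 0.10, adjusted p = 0.274) and Nlgn1 (0.18, SE 0.084, adjusted p = 0.312, all by edgeR). The 95% interval of the difference was -0.054 to 0.19 for Dlg2 and -0.20 to 0.061 for Shank2. With the GC trend removed, the difference was -0.16 for Shank1 (adjusted p = 0.0978) and 0.25 for Homer1 (adjusted p = 0.103).

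Other genes of the same synapses were read from lists. Among 24 further genes of the excitatory scaffold, 2 fell in the co-cultures and 0 rose, with 17 estimates below 0 and 7 above and a median of -0.033. They were Tanc2, a scaffold protein of the postsynaptic density (253 ± 6.06 CPM with anti-miR-99b and 278 ± 8.29 CPM with sc-control, log2 fold change -0.13, SE 0.023, adjusted p = 0.00172 by edgeR, groups that did not overlap), and Sipa1l1, a spine protein that acts on Rap GTPases (196 ± 7.09 and 211 ± 6.56 CPM, -0.11, SE 0.025, adjusted p = 0.0303). Over all genes tested in the co-cultures, 0.556% were called lower and 0.846% higher. With the exonic length trend removed, genes called lower went from 90 to 18. The part of length in the values of Tanc2 and Sipa1l1 was not tested. Of 7 genes of inhibitory postsynapses and 26 adhesion partners, which include the neurexins that bind neuroligins, 0 passed the threshold in the co-cultures, with medians of -0.033 and -0.030. In the PFC 0 genes of these 3 lists were called. Their medians there were -0.013, -0.015 and -0.084, beside -0.019 for the 9 members.

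The 5 genes whose level ran most closely with the mean standardized level of the 9 members over the 15 co-culture libraries, group means removed, were Wscd2 (Pearson r = 0.905), Apba1 (0.901), Nav1 (0.899), Ube3b (0.896) and Fry (0.885). Apba1 encodes an adaptor protein of the presynapse and Nav1 a microtubule-associated protein of neurons. Of these 5, Nav1 (log2 fold change -0.12, adjusted p = 0.00507 by edgeR) and Fry (-0.11, adjusted p = 0.0296) fell in the co-cultures. The other 3 did not pass the threshold. Among all co-culture genes tested, 0.556% were called lower. The mean of the 9 members joins genes that ran against each other, such as Nlgn1 and Nlgn2 (r = -0.789). Levels entered it without removal of the GC trend, and the part of GC content in the r values of the 5 genes was not tested.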

How the data were processed

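RNA was measured by polyA-selected single-read sequencing in 29 libraries of 3 experiments. The authors aligned reads with STAR 2.5.2b to mm10, counted them with featureCounts 1.5.1, and the deposited values are each gene's unnormalized read count. The annotation release and strand setting are not given in the sources used here. Groups came from the labels, replicate numbers and lanes from library names. Symbols, coordinates, exon unions and transcript GC content came from GENCODE M21 (GRCm38), and a length and GC value existed for 99.7% of the genes tested.

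PFC and co-cultures were fitted apart in R 4.3.3, with filterByExpr, TMM factors and the quasi-likelihood test of edgeR 4.0.16, with Benjamini-Hochberg adjustment over all genes tested. SE is the log2 fold change divided by the square root of F, and intervals are 95%. The interaction was fitted over PFC and co-culture libraries together. CPM used the TMM-scaled library size, and log2 values of single libraries an added 0.5 CPM. Thresholds follow the study, but the test does not. For the PFC the study names DESeq2, and its methods describe the removal of 1 factor of unwanted variation. Here DESeq2 and such a factor were each run apart, as alternatives. Genes outside the 9 members were named by a rule: members of the lists past the threshold (at most 5 per list and experiment), the 5 most alike, and genes that overlap a member.

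Alternatives were DESeq2 1.42.0, RLE and upper-quartile factors, no filter beyond a total of 1 count, at least 10 counts in every library, 1 factor of unwanted variation (RUVs, written out in R), lane or replicate number as a block, trends over exonic length or genomic span removed (loess, span 0.5), and each replicate left out. Trends over GC content, and the omission of 2 co-culture libraries, were added after seeing the data. Replicate numbers did not pair the libraries (correlations of deviations from group means between -0.285 and 0.0476). No libraries of a group agreed within sampling noise (lowest chi-square per degree of freedom 1.44). The fits were tested on simulated data. The members and lists were chosen with earlier results of these data known.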

Additional observations from a re-analysis of the deposited data

Results flagged for a closer look

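In 6 of 36 combinations of a gene and a group of 4 to 8 libraries, 1 library stood apart from the others by Dixon's criterion, where chance gives about 1 in 20. That rate holds for a single combination, and genes of 1 library vary together, so the 36 combinations are not independent. All 6 were in the co-cultures, while the PFC, with 3 libraries per group, was not tested. Anti-miR-99b library 7 was the highest of its group for Dlg2 (523 CPM), Homer1 (116 CPM) and Nlgn1 (119 CPM), the 3 members with the lowest GC content. Sc-control library 6 was the lowest of its group for Shank3 (150 CPM) and Nlgn2 (328 CPM), which have a GC content over 60%. Anti-miR-99b library 12 was the highest for Dlg4 (532 CPM). These 3 libraries had slopes over GC content of -0.129, -0.0907 and 0.105 log2 per 10 points, the extremes of their groups. Without libraries 7 and 6, 0 members were called in the co-cultures, 9 of 9 estimates were below 0, and Shank2 measured -0.097 (SE 0.026, adjusted p = 0.0548 by edgeR).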

How the results depend on the processing

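Every member had at least 962 counts in each PFC library and at least 1671 in each co-culture library, while Dlg2 had 13 to 24 in primary microglia; the PFC groups held 3 libraries each. The number of members called higher was 0 under every alternative run in both experiments, and no difference between the systems was called. In the PFC, the number called lower became 1 (Homer1) with no filter, and stayed 0 under the other 18 alternatives. In the co-cultures it became 1 (Shank2) with DESeq2, with no filter and with the RUVs factor, 2 with the GC trend removed, and between 0 and 1 when each replicate was left out. With the RUVs factor, Shank1 (-0.088, adjusted p = 0.00707) and Dlg2 (-0.053, adjusted p = 0.0317, both by edgeR) missed the fold threshold only. Shank2 was called without anti-miR-99b replicate 12 (-0.13, adjusted p = 0.0136) and without sc-control replicate 11 (-0.12, adjusted p = 0.0396, edgeR); over all left-out replicates its estimate ran from -0.13 to -0.089.

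Signs turned as follows, with no call on either side; the cause was not tested. In the PFC, Shank2 became 0.020 with upper-quartile factors, 0.0048 with the exonic and 0.025 with the span trend removed. Under the replicate block, which kept 4 of 6 libraries, Dlg4, Shank3 and Nlgn2 became -0.077, -0.065 and -0.050, and with the exonic trend as well -0.092, -0.091 and -0.092. With the GC trend removed they became -0.032, -0.046 and -0.045, and with both GC and exonic trends -0.0015, -0.028 and -0.033. When each replicate was left out in the PFC, Dlg4 ran from -0.014 to 0.12, Shank3 from -0.022 to 0.13, Nlgn2 from -0.020 to 0.12 and Shank2 from -0.066 to 0.031. Dlg4, Shank3 and Nlgn2 turned without anti-miR-99b replicate 1 (-0.014, -0.022 and -0.020), Dlg4 also without sc-control replicate 4 (-0.0085), and Shank2 without anti-miR-99b replicate 2 (0.031).

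In the co-cultures, Dlg4, Homer1 and Nlgn1 became 0.0043, 0.027 and 0.031 with the exonic trend removed, and 0.010, 0.020 and 0.023 with GC and exonic trends removed. Dlg2, Homer1 and Nlgn1 became 0.0039, 0.0062 and 0.035 with the span trend removed. Whether replicate numbers pair the libraries could not be settled. Under the replicate block, which kept 8 of 15, Shank3 and Nlgn2 became 0.032 and 0.021. With the block and the exonic trend, Dlg2, Dlg4, Shank1, Shank3, Nlgn1 and Nlgn2 became 0.0082, 0.036, 0.017, 0.053, 0.0015 and 0.020. When each replicate was left out, Homer1 ran from -0.034 to 0.010 and Nlgn1 from -0.037 to 0.0095; Homer1 was above 0 without anti-miR-99b replicate 2, 3 or 11, and both were without sc-control replicate 6 or 12. The difference between the systems for Nlgn2 became 0.00090 with the GC trend removed. With the sign kept, leaving out a replicate also moved by over 1.5 times, in the PFC, Dlg4 (0.12 without anti-miR-99b replicate 3, 0.092 without sc-control replicate 2), Shank3 (0.13 without anti-miR-99b replicate 2, 0.096 and 0.013 without sc-control replicates 2 and 4), Nlgn2 (0.12 without anti-miR-99b replicate 3, 0.026 without sc-control replicate 4) and Shank2 (-0.066 without anti-miR-99b replicate 1). In the co-cultures it moved Dlg4 (-0.056 without anti-miR-99b replicate 12). Under the replicate block Shank1 was 0.050 and Homer1 -0.083 in the PFC, and Shank1 -0.011 and Shank2 -0.048 in the co-cultures. Over all genes, calls in the PFC ran from 15 higher and 0 lower to 85 and 8 with DESeq2, 297 and 115 with no filter, 192 and 92 with the RUVs factor, 73 and 4 with lane as a block, 25 and 0 with upper-quartile factors, 32 and 3 with the GC trend removed, 36 and 2 with GC and exonic trends removed, 475 and 43 under the replicate block and 377 and 60 with the exonic trend as well. Leaving out a replicate gave from 1 higher (without anti-miR-99b replicate 2 or sc-control replicate 2) to 195 higher and 6 lower (without sc-control replicate 4). Co-culture calls ran from 137 and 90 to 162 and 128 with DESeq2 and 284 and 236 with the RUVs factor. With no filter they were 191 and 99 of 33391. Trends removed gave 252 and 278 (GC), 95 and 18 (exonic), 106 and 41 (span) and 169 and 60 (GC and exonic). Blocks gave 85 and 36 (lane), 70 and 23 (replicate) and 54 and 3 (replicate and exonic trend). Leaving out a replicate gave 89 to 159 higher and 49 to 141 lower.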
